A study of Mus musculus with 16 samples.

Results

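Yap1 and Wwtr1 (TAZ) encode the transcriptional co-activators at the end of the Hippo pathway, and with the DNA-binding factor Tead1 and 7 genes known as their targets they make up the group of 10 genes described here. The genes were chosen by their symbols (Ccn1 is also known as Cyr61 and Ccn2 as Ctgf), with earlier results on their levels and their responses in these samples in view. All 10 were found among the 33072 genes of the count table by their Ensembl identifiers. The p-values given for them therefore describe these samples and are no independent support for the choice of the genes.

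In the Hippo pathway the kinases LATS1/2, which act downstream of the kinases MST1/2, phosphorylate YAP and TAZ. Phosphorylated YAP and TAZ are held in the cytoplasm or degraded. When the kinases are less active, YAP and TAZ enter the nucleus, bind TEAD factors and raise the transcription of genes for matrix-associated growth regulators, cytoskeletal proteins and the pathway's own inhibitors. The activity of YAP and TAZ is set largely by phosphorylation and location, which RNA levels do not show. In mammary carcinoma cells the pathway is known for its links to cell density, adhesion and migration.

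A pair of isogenic lines from a spontaneous mammary carcinoma of a BALB/c mouse were compared, the metastatic 4T1 line and the non-metastatic 67NR line. Subconfluent cultures of each line were given vehicle (DMSO) or 15 µM CIX, an inhibitor of cytosolic phospholipase A2 alpha (cPLA2α, encoded by Pla2g4a), in medium with serum for 24 h. Each of the 4 groups held 4 samples, which the study's methods call biological replicates, and they carry the numbers 1 to 16 of their labels. Each line stands for itself alone as a model, 67NR for the non-metastatic and 4T1 for the metastatic state, so that metastatic ability cannot be told apart from other differences between the lines.

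Total estimated counts per sample lay between 21715700 and 29450629, with a median of 23961313, and 3 counts, taken as the smallest detectable level, corresponded to 0.107 to 0.137 CPM (counts scaled to library size, the unit of the levels below). Of 11 epithelial markers, 9 or 10 had a mean above 1 TPM (CPM corrected for gene length) in the 4T1 groups, with a summed level of 3220 to 3600 TPM. The 67NR samples, labelled as mammary carcinoma as well, held 0.82 to 5.35 TPM of the same markers, and 9 of 10 mesenchymal markers were above 1 TPM in them. No immune or endothelial marker reached a mean of 1 TPM in any group. Vehicle treated 67NR sample 13 stood apart, with 324 CPM of Pla2g4a against 60.2 to 81.2 CPM in the other 3 samples of its group, and results that rest on it are given with and without it.

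The motif GGAATG, or CATTCC where it is read on the other strand, is the sequence bound by TEAD factors. It was searched on both strands in RefSeq promoters of build GRCm38.p6, from 250 bases before to 50 bases after a start. Promoters were matched for 8 of the 10 genes, with Ccn2 and Tead1 unmatched. Lats2 and Wwtr1 had a pair of promoters each. The pair of Wwtr1 overlap and hold the same motif, which was counted in both. The motif was found in 8 of the 10 promoters of these genes, or for 7 of the 8 genes, against 14.7% of all 32851 promoters. It was missing from the promoter of F3 and from one of the promoters of Lats2. In the 250 bases before the start alone it was found in 7 of the 10, or for 6 of the 8 genes, and in 12.6% of all promoters. For Ccn1 and Axl the 250 bases before the start, which overlap no exon in the GENCODE annotation, are shown, without the 50 bases after it. These 2 targets were chosen because they carry 1 TEAD motif each at very different distances from the start, 103 and 233 bases. The motif is in capitals.
Ccn1, chr3:145649986-145650235, strand -: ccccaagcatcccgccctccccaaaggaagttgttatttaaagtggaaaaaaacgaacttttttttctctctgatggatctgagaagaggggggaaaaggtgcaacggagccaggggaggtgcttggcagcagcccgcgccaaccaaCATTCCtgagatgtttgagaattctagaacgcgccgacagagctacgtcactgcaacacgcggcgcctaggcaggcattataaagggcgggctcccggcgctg
Axl, chr7:25788734-25788983, strand -: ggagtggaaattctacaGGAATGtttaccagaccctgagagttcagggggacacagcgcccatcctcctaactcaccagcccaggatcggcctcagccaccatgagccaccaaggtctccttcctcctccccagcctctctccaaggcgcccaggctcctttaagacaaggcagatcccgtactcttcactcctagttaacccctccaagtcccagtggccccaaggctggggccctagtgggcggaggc
Around the motifs of the other genes, 30 bases are shown, because the region before the start of Ankrd1, and part of that of Amotl2, is exonic in other annotated transcripts. The Ankrd1 promoter is the only one with 2 motifs before the same start, at 210 and 123 bases.
Ankrd1 distal site, chr19:36120037-36120066, strand -: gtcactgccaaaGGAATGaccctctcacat
Ankrd1 proximal site, chr19:36119950-36119979, strand -: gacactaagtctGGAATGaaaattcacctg
Amotl2, chr9:102717727-102717756, strand +: ctgaaactctcaCATTCCtggcatagcagc
Yap1, chr9:8004720-8004749, strand -: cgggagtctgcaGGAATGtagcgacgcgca
Wwtr1, chr3:57576029-57576058, strand -: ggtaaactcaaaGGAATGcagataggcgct
Lats2 held its motif only after the start. F3 had no TEAD motif, but it was the only one of the 8 genes with the AP-1 motif TGANTCA, which it held at 2 places (capitals) and which occurred in 7.81% of all promoters. The CArG box bound by SRF was found in 1.63% of all promoters and in none of these 8. A match describes the letters of the window and is not evidence of binding.
F3, chr3:121723385-121723414, strand +: cgctgtTGAATCAcggtTGAGTCAcccctt

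Levels of the 10 genes spanned a wide range (TPM, which allows genes to be compared, with TPM approximated from mean transcript lengths). In vehicle treated 4T1 cells the highest was Axl at 405 ± 84 TPM (SD, n = 4), followed by Ccn1 at 154 ± 29.7 TPM and Yap1 at 149 ± 56.4 TPM, whose samples overlapped. Wwtr1, Tead1, Ankrd1 and Amotl2 lay between 53.2 and 65.6 TPM, each overlapping its neighbour in this order. They were followed by Lats2 at 36 ± 14.5 TPM, F3 at 19.9 ± 3.2 TPM and Ccn2 at 3.48 ± 0.616 TPM. In vehicle treated 67NR cells Axl was again highest, at 1830 ± 93.3 TPM, and Ccn2 again lowest, at 3.54 ± 1.57 TPM. Ccn1, Wwtr1, Ankrd1, Yap1 and Tead1 lay between 75.1 and 87.4 TPM there, with overlapping samples. In the bulk RNA of a culture, fewer cells that express a gene and less RNA per cell cannot be told apart.

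**Figure D1:**
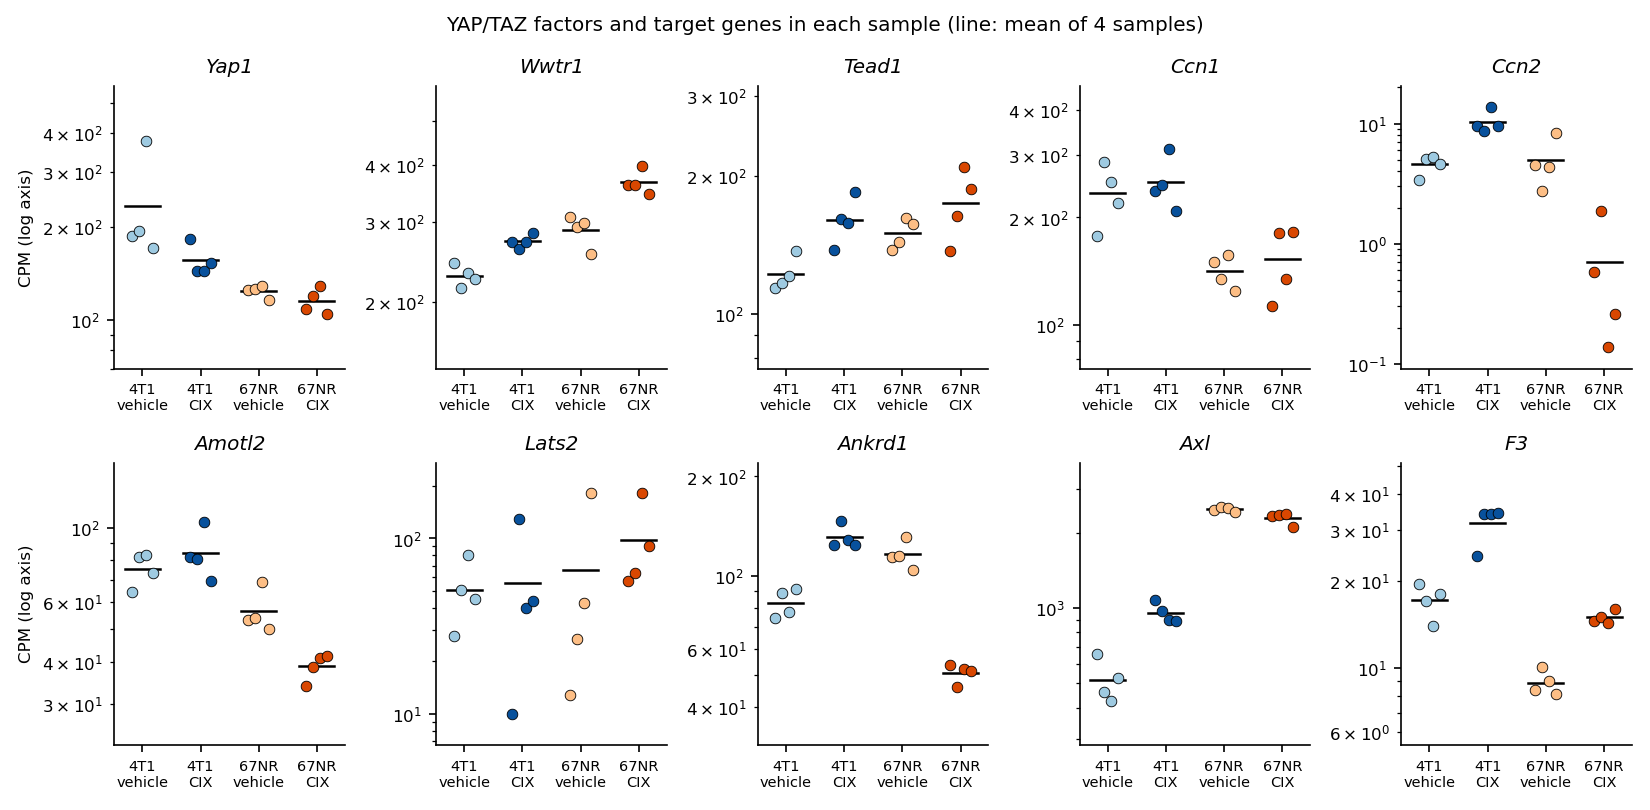
CPM of each gene in each sample on a log axis, in 4 groups of 4 samples, with the group mean as a line. Ccn2 and Ankrd1 were highest in CIX treated 4T1 cells and lowest in CIX treated 67NR cells, and Lats2 was spread widely within groups, from 12.8 to 181 CPM in vehicle treated 67NR cells.

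The first question was how the genes responded to CIX in each line, and whether the responses differed. Genes were called at an adjusted p-value below 0.001 (limma-voom, Benjamini-Hochberg over all tested genes), the threshold of the study's methods. In 4T1 cells 1 of the 10 genes was called, Axl, which was higher, against 9.28% of the 11676 genes tested. In 67NR cells 1 of 10 was called, Ankrd1, which was lower, against 0.389% of 11583 genes. The difference between the 2 responses passed the test for 3 of the 10 genes, Ccn2, Ankrd1 and Axl, against 7.86% of 12629 genes, and for all 3 the response was more positive in 4T1 cells. These 3 also passed when any 1 of the 16 samples was left out.

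**Figure D2:**
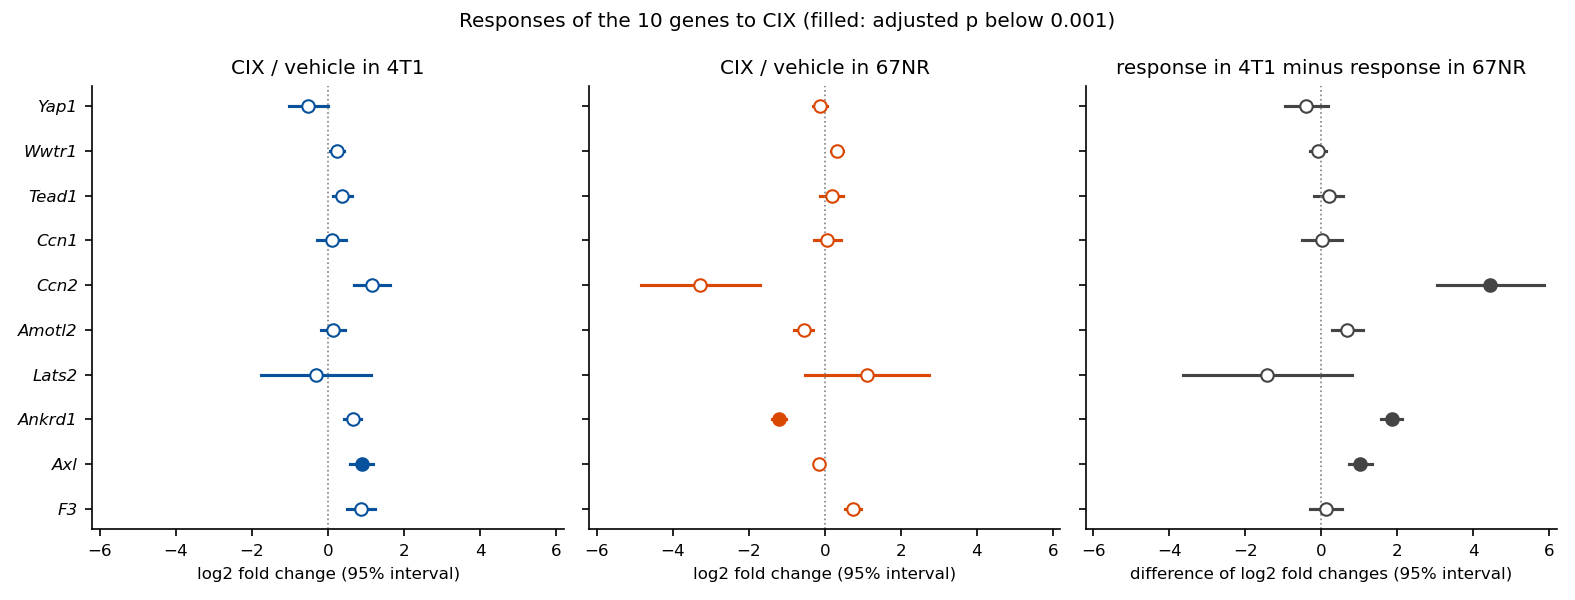
Log2 fold changes of CIX against vehicle in 4T1 cells (left) and in 67NR cells (middle), and their difference (right), as points with 95% intervals; filled points passed the test. Only Ccn2, Ankrd1 and Axl are filled at the right, at 4.45, 1.85 and 1.03, and the interval of Lats2 crosses 0 in all 3 panels.

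Counted by samples, 6 of the 10 genes had all CIX treated 4T1 samples above all vehicle treated ones, and none had them below, where 39.9% of all tested genes were separated in either direction. The 6 genes were Ccn2, Ankrd1, Axl, F3, Wwtr1 and Tead1. In 67NR cells 6 genes were separated as well, 2 of them higher with CIX (F3 and Wwtr1) and 4 lower (Ccn2, Ankrd1, Amotl2 and Axl), where 23.3% of all tested genes were separated. The median log2 fold change of the 10 genes was 0.304 in 4T1 cells and -0.026 in 67NR cells, and over all tested genes it was -0.007 and -0.006.

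Of the factors themselves, Yap1 encodes the co-activator YAP. Its level was 187, 193, 377 and 171 CPM in vehicle treated 4T1 samples 3, 7, 11 and 15, and 183, 144, 144 and 153 CPM in CIX treated samples 4, 8, 12 and 16. Vehicle sample 11 was far above the other 7, and the 2 groups overlapped. The log2 fold change was -0.52 (SE 0.23, adjusted p = 0.0968) with all samples and -0.26 (adjusted p = 0.102) without sample 11. 67NR samples held 116 to 129 CPM with vehicle and 105 to 129 CPM with CIX, a log2 fold change of -0.12 (SE 0.0793, adjusted p = 0.329). Between the lines the responses differed by -0.40 on the log2 scale, with a 95% interval of -0.97 to 0.17 that spans 0.

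Wwtr1, which encodes the paralog TAZ, had a level of 243, 214, 232 and 224 CPM in vehicle treated and 271, 262, 271 and 283 CPM in CIX treated 4T1 samples. In 67NR cells it was 308, 292, 298 and 255 CPM with vehicle and 362, 361, 398 and 345 CPM with CIX. Both lines thus had the CIX groups above the vehicle groups without overlap, by small steps. The log2 fold change was 0.24 (SE 0.0775, adjusted p = 0.0348) in 4T1 and 0.33 (SE 0.0716, adjusted p = 0.0157) in 67NR, which passed 0.05 but not the threshold of 0.001. Their difference was -0.10, with a 95% interval of -0.31 to 0.12.

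Tead1, the TEAD family member of the group, gave 114, 117, 121 and 137 CPM in vehicle treated and 138, 161, 158 and 185 CPM in CIX treated 4T1 samples. The groups touched at 137 and 138 CPM but did not overlap, with a log2 fold change of 0.37 (SE 0.11, adjusted p = 0.0214). In 67NR cells the range was 138 to 162 CPM with vehicle and 137 to 210 CPM with CIX, and the groups overlapped (log2 fold change 0.18, SE 0.131, adjusted p = 0.368).

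Among the targets, Ccn1 and Ccn2 encode related secreted matricellular proteins and are the genes most often read as YAP/TAZ output. Ccn1 was 178, 287, 252 and 219 CPM in vehicle treated and 238, 246, 312 and 208 CPM in CIX treated 4T1 samples. In 67NR samples it was 150, 134, 157 and 124 CPM with vehicle and 113, 181, 134 and 182 CPM with CIX. The groups overlapped in both lines. The log2 fold changes were 0.09 (95% interval -0.28 to 0.47, adjusted p = 0.682) and 0.07 (95% interval -0.28 to 0.42, adjusted p = 0.797).

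Ccn2 was the least abundant of the 10 genes. Its level was 3.38, 5.03, 5.26 and 4.65 CPM in vehicle treated 4T1 samples and 9.47, 8.72, 13.7 and 9.47 CPM in CIX treated ones, so that every CIX sample was above every vehicle sample. In 67NR cells it was 4.52, 2.72, 4.37 and 8.39 CPM with vehicle and 0.579, 1.86, 0.137 and 0.262 CPM with CIX, so that every CIX sample was below. The 67NR CIX values rest on 15, 45, 3 and 6 estimated counts, and sample 10 lay at the smallest detectable level. The fitted levels with CIX were 2.24-fold higher in 4T1 cells (log2 fold change 1.16, SE 0.214, adjusted p = 0.00237) and 9.65-fold lower in 67NR cells (log2 fold change -3.27, SE 0.692, adjusted p = 0.014), neither of which passed 0.001. The difference between the responses, 4.45 on the log2 scale (95% interval 3.04 to 5.85), passed with an adjusted p of 1.65e-04. Without vehicle treated 67NR sample 13, which had the highest Ccn2 level of its group, the difference was 4.16 (adjusted p = 0.00024) and the log2 fold change in 67NR cells was -2.98 (adjusted p = 0.0139). The sizes also depended on CIX treated 67NR sample 6, without which the difference was 5.11 and the 67NR log2 fold change -3.93 (adjusted p = 0.0159). With any 1 sample left out, they ranged from 3.94 to 5.11 and from -3.93 to -2.77. In 67NR cells Ccn2 entered the test only because 1 CIX sample, sample 6, was above the filter of 1 TPM.

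Ankrd1 encodes CARP, a nuclear and sarcomeric ankyrin repeat protein that is induced by stretch and by YAP. Its level was 74.2, 88.4, 77.5 and 91.1 CPM in vehicle treated 4T1 samples and 124, 147, 128 and 124 CPM in CIX treated ones. In 67NR cells it was 114, 115, 131 and 104 CPM with vehicle and 53.4, 45.9, 51.9 and 51.2 CPM with CIX. The groups were far apart in both lines and in opposite directions. With CIX it was 2.31-fold lower in 67NR cells (log2 fold change -1.21, SE 0.0813, adjusted p = 0.000296). In 4T1 cells the log2 fold change was 0.64 (SE 0.105, adjusted p = 0.00129), just outside the threshold. The responses of Ankrd1 differed by 1.85 (95% interval 1.57 to 2.13, adjusted p = 1.14e-06), the smallest adjusted p among the 10 genes. Leaving out 1 sample kept the call in 67NR only for vehicle sample 13 or CIX sample 2, and without each of the other 6 samples the adjusted p was 0.00181 to 0.00248.

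Amotl2 and Lats2 are targets that act back on the pathway, Amotl2 as an angiomotin family protein that binds YAP at junctions and Lats2 as one of the kinases that phosphorylate YAP and TAZ. Amotl2 was 64.4, 81.7, 82.8 and 73.1 CPM in vehicle treated and 81.9, 80.8, 104 and 69.5 CPM in CIX treated 4T1 samples, which overlapped (log2 fold change 0.13, SE 0.141, adjusted p = 0.47). In 67NR cells it was 53.1, 53.8, 68.8 and 49.8 CPM with vehicle and 33.9, 38.6, 41.1 and 41.4 CPM with CIX. All 67NR CIX samples were thus below all vehicle samples, with a log2 fold change of -0.56 (SE 0.112, adjusted p = 0.0111). The difference of the responses was 0.69 (95% interval 0.29 to 1.09, adjusted p = 0.0125), in the same direction as for Ccn2 and Ankrd1 but not past the threshold.

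Lats2 varied widely within groups. Its level was 27.6, 50.6, 80.7 and 45.3 CPM in vehicle treated and 9.92, 129, 40.2 and 44.2 CPM in CIX treated 4T1 samples, and 12.8, 26.6, 43 and 181 CPM in vehicle treated and 57.1, 63.7, 181 and 90.5 CPM in CIX treated 67NR samples. The log2 fold change was -0.31 (SE 0.648, adjusted p = 0.723) in 4T1 and 1.11 (SE 0.718, adjusted p = 0.321) in 67NR cells, and the responses differed by -1.42 (95% interval -3.64 to 0.81, adjusted p = 0.347). Without vehicle treated 67NR sample 13 the 67NR value was 1.83 (adjusted p = 0.0396) and the difference -2.13 (adjusted p = 0.104). With any 1 sample left out, the 67NR value ranged from 0.54 to 1.83 and the difference from -2.13 to -0.77. The sign in 4T1 cells turned to 0.115 by edgeR, to 0.105 by DESeq2 and to 0.32 without CIX sample 4. In the GENCODE annotation 41.7% of the 31-base words of its transcripts also occur in other genes, and a gene on the same strand, Gm49361, overlaps its exons and was not analysed here. For the other 9 genes this share was at most 1.89%, and 2 of them are overlapped by genes on the opposite strand, Ccn2 by Gm15270 and Yap1 by Gm20416, neither analysed here; whether the counting used strand is not given in the sources used here. Counts of Lats2 are therefore uncertain, and whether the shared words account for the spread was not tested. In 3 of the 4 groups the sample with the highest Lats2 level was also that with the highest Pla2g4a level, namely 4T1 vehicle sample 11 (162 CPM of Pla2g4a), 67NR vehicle sample 13 (324 CPM) and 67NR CIX sample 10 (176 CPM), whereas in CIX treated 4T1 cells these were samples 8 and 12. How many other genes were highest in the same samples was not counted. Over all genes, samples 11 and 13 had the lowest median correlation with the other samples of their groups, 0.97 and 0.9727. The highest in these groups were 0.9792 and 0.985. For sample 10 it was 0.9829, in a group of 0.9809 to 0.9831.

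**Figure D3:**
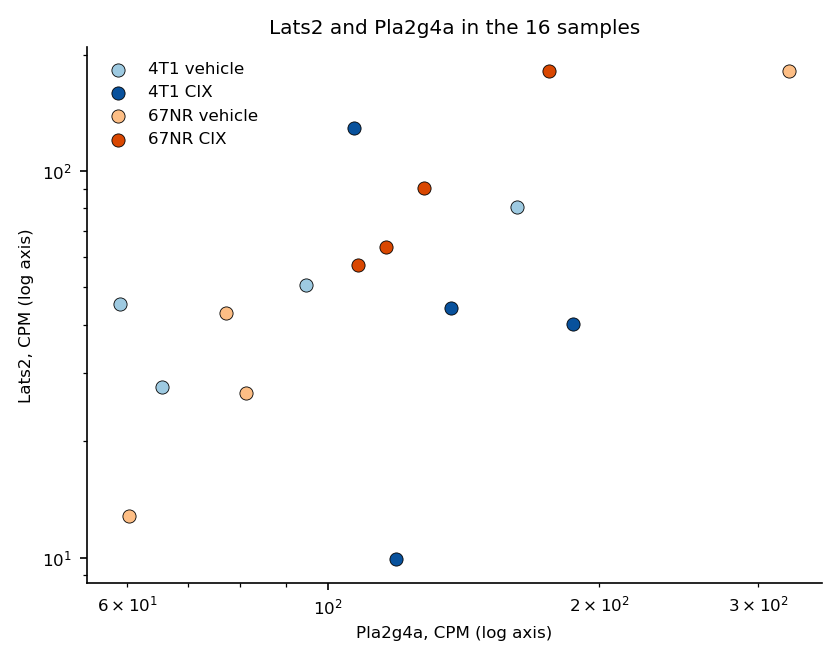
Lats2 against Pla2g4a in the 16 samples, in CPM with both axes on a log scale and coloured by group. Vehicle treated 67NR sample 13 is at the upper right, with 324 CPM of Pla2g4a and 181 CPM of Lats2, and CIX treated 4T1 sample 4 is lowest, with 9.92 CPM of Lats2.

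Axl encodes a receptor tyrosine kinase for the ligand GAS6. Its level was 656, 461, 425 and 526 CPM in vehicle treated and 1080, 973, 898 and 886 CPM in CIX treated 4T1 samples. In 67NR cells it was 2470, 2550, 2510 and 2430 CPM with vehicle and 2340, 2350, 2370 and 2110 CPM with CIX. All CIX samples were above the vehicle samples in 4T1 cells and slightly below them in 67NR cells. Axl was 1.85-fold higher with CIX in 4T1 cells (log2 fold change 0.89, SE 0.136, adjusted p = 0.000931), and the log2 fold change in 67NR cells was -0.14 (SE 0.0564, adjusted p = 0.124). The difference of the responses, 1.03 (95% interval 0.72 to 1.33), passed with an adjusted p of 9.75e-05. The call in 4T1 cells lay close to the threshold. It was kept without vehicle sample 3 and lost without each of the other 7 samples (adjusted p 0.00218 to 0.00433). Mesenchymal markers moved with Axl in 4T1 cells, where all 4 that could be tested rose. Of these 4, 3 were called (Vim, Sparc and Twist1), against the 9.28% of all genes called in either direction. Fn1, which was not called, had means of 1660 CPM with vehicle and 2180 CPM with CIX. The summed level of all 10 was 1520 to 1930 TPM with vehicle and 2840 to 3320 TPM with CIX. Most of this sum was Vim, with means of 995 and 2240 TPM, whereas Col1a2 and Zeb1, too low to be tested, had means of 1.25 and 0.542 CPM with vehicle and 0.259 and 0.215 CPM with CIX. The call of Vim held without each of the 8 samples, that of Sparc in 7 of these 8 fits, all but that without CIX sample 8, and that of Twist1 in 0 of 8 (adjusted p 0.001 to 0.0026). Of the 11 epithelial markers, 9 could be tested in 4T1 cells and 4 of them had an adjusted p below 0.05, as 42.7% of all genes had. Epcam fell by 0.778 on the log2 scale (adjusted p = 0.000128), and Cldn7 was lower in every CIX sample (-0.87, adjusted p = 0.00132). Krt19 and Krt7 were higher in every CIX sample, at 0.68 (adjusted p = 0.00374) and 0.45 (adjusted p = 0.00529). In 67NR cells none of 9 tested mesenchymal markers was called by limma-voom, where 0.389% of all genes were, 3 had an adjusted p below 0.05, and their median log2 fold change was -0.118. Their summed level there was 5400 to 6740 TPM with vehicle and 7740 to 8680 TPM with CIX, and most of it was Vim, with means of 4270 and 6420 TPM, whereas Sparc had means of 1460 and 1170 TPM and Pdgfrb of 12.1 and 7.1 TPM. Of 9 mesenchymal markers tested for the difference of the responses, 3 were called, against 7.86% of all genes. They were Vim, Sparc and Twist1, all more positive in 4T1 cells, and their calls held without each of the 16 samples. The difference was below 0 for 3 of the 9, none of them called. Cdh2 and Col3a1 were at 0 in all CIX treated 4T1 samples, and the part of the mesenchymal and epithelial markers in the result was not tested.

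F3 encodes tissue factor, the cell surface starter of coagulation. Its level was 19.6, 17, 14 and 18.1 CPM in vehicle treated and 24.4, 34.3, 34.3 and 34.4 CPM in CIX treated 4T1 samples, and 8.37, 10.1, 9.01 and 8.1 CPM in vehicle treated and 14.6, 15, 14.3 and 16 CPM in CIX treated 67NR samples. Of the 7 targets among the 10 genes, it was the one whose CIX samples were above the vehicle samples in both lines. The log2 fold change was 0.87 (SE 0.162, adjusted p = 0.00253) in 4T1 and 0.74 (SE 0.0951, adjusted p = 0.00199) in 67NR, and neither passed 0.001. Their difference was 0.13, with a 95% interval of -0.31 to 0.56. Without CIX sample 4, the lowest of its group, the 4T1 value was 0.97 and passed (adjusted p = 0.000726).

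The number of the 10 genes called within a line depended on the test. DESeq2's Wald test at the same threshold called 4 genes in 4T1 cells (Ccn2, Ankrd1, Axl and F3, all higher), against 3096 of all 11676 genes. In 67NR cells it called 4 (Ccn2, Ankrd1 and Amotl2 lower and F3 higher), against 1042 of all 11583 genes. edgeR's quasi-likelihood test called none of the 10 in 4T1 cells, where 7 had an unadjusted p below 0.05, against 5951 of all 11676 genes. All 3 tests called the same 3 genes for the difference of the responses.

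The second question was how the 2 lines differed before treatment. The vehicle samples used here are the same as in the responses above, so that these comparisons are not independent of them. Of the 10 genes, 2 were called, against 40% of the 11057 genes tested, and 7 were separated between the lines, against 61.5% of all. Axl was separated by a wide gap, with 425 to 656 CPM in 4T1 samples and 2430 to 2550 CPM in 67NR samples, and was 4.91-fold lower in 4T1 cells (log2 fold change -2.30, SE 0.126, adjusted p = 6.4e-07). F3 was 1.92-fold higher in 4T1 cells (log2 fold change 0.94, SE 0.144, adjusted p = 0.000331), with 14 to 19.6 CPM against 8.1 to 10.1 CPM. The F3 call was lost without 4T1 vehicle sample 7 or 15 or 67NR vehicle sample 1 or 9 (adjusted p up to 0.00136).

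The other genes were closer between the lines. Ccn1 was separated with higher levels in 4T1 cells, 178 to 287 CPM against 124 to 157 CPM (log2 fold change 0.70, SE 0.14, adjusted p = 0.00168), and passed without 4T1 vehicle sample 3 (adjusted p = 0.000289). Yap1 was likewise higher in every 4T1 sample, 171 to 377 CPM against 116 to 129 CPM (log2 fold change 0.82, SE 0.222, adjusted p = 0.0093). Without 4T1 vehicle sample 11 it passed, with a smaller log2 fold change of 0.56 (adjusted p = 0.000287). Wwtr1, Tead1 and Ankrd1 were lower in every 4T1 sample, with log2 fold changes of -0.34 (SE 0.0772, adjusted p = 0.00328), -0.31 (SE 0.0921, adjusted p = 0.0143) and -0.50 (SE 0.0958, adjusted p = 0.00138). Ccn2 did not differ detectably, with 3.38 to 5.26 CPM in 4T1 and 2.72 to 8.39 CPM in 67NR samples (log2 fold change -0.04, 95% interval -0.77 to 0.70). For Amotl2 the log2 fold change was 0.41 (SE 0.119, adjusted p = 0.0123) and for Lats2 it was 0.24 (SE 0.709, adjusted p = 0.78). Without 67NR vehicle sample 13 the value of Ccn2 was 0.26 (adjusted p = 0.381) and that of Lats2 0.97 (adjusted p = 0.0928). The direction of Lats2 turned in other fits, with -0.41 by edgeR, -0.38 by DESeq2 and -0.30 without 67NR vehicle sample 1.

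Beyond the 10 genes, the kinases and upstream regulators of the Hippo pathway were described as a list of 25 genes, of which 23 were tested in each line. In 4T1 cells 1 of the 23 was called, below the 9.28% of all genes, and 10 had an adjusted p below 0.05, as 42.7% of all genes had. The called gene was Mob1b, an activating subunit of the LATS kinases, which fell by 0.964 on the log2 scale (SE 0.0994, adjusted p = 0.00015) and kept its call in 7 of the 8 fits without 1 sample, losing it without CIX sample 8 (adjusted p = 0.00104). In 67NR cells its log2 fold change was 0.06 (adjusted p = 0.639), and the difference of the responses passed (-1.03, adjusted p = 2.46e-05). No gene of the list was called in 67NR cells by limma-voom, where 4 of 23 had an adjusted p below 0.05, as 17.8% of all genes had. The median log2 fold change was 0.279 in 4T1 and 0.044 in 67NR cells. Of the other TEAD factors and YAP/TAZ cofactors, 8 were tested in 4T1 and 9 in 67NR cells. None was called in either line by limma-voom, where 9.28% and 0.389% of all genes were. An adjusted p below 0.05 was found for 3 of the 8 and 4 of the 9, against 42.7% and 17.8% of all genes.

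Among 22 other YAP/TAZ target genes, 17 were tested in 4T1 cells, where 1 was called, no more than the 9.28% of all genes, and 14 in 67NR cells, where 1 other was called, against 0.389% of all genes. An adjusted p below 0.05 was found for 9 of the 17 and 9 of the 14, against 42.7% and 17.8% of all genes. Birc5, which encodes the mitotic and anti-apoptotic protein survivin, rose by a log2 fold change of 1.22 in 4T1 cells (SE 0.11, adjusted p = 9.15e-05). Thbs1, which encodes the matrix glycoprotein thrombospondin, fell by 1.38 on the log2 scale in 67NR cells (SE 0.119, adjusted p = 0.000581). The call of Thbs1 was lost without each of the 8 samples (adjusted p 0.00115 to 0.00356), with log2 fold changes of -1.45 to -1.29, whereas that of Birc5 held in all 8 fits. In the other line their log2 fold changes were -0.66 for Birc5 (adjusted p = 0.00374) and -0.28 for Thbs1 (adjusted p = 0.191). The responses differed between the lines for 2 of 18 tested genes of this list, against 7.86% of all genes, namely Birc5 (1.88, adjusted p = 1.86e-06) and Crim1 (1.27, adjusted p = 6.54e-05), both more positive in 4T1 cells. The median of the tested genes was 0.469 in 4T1 and -0.054 in 67NR cells.

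**Figure D4:**
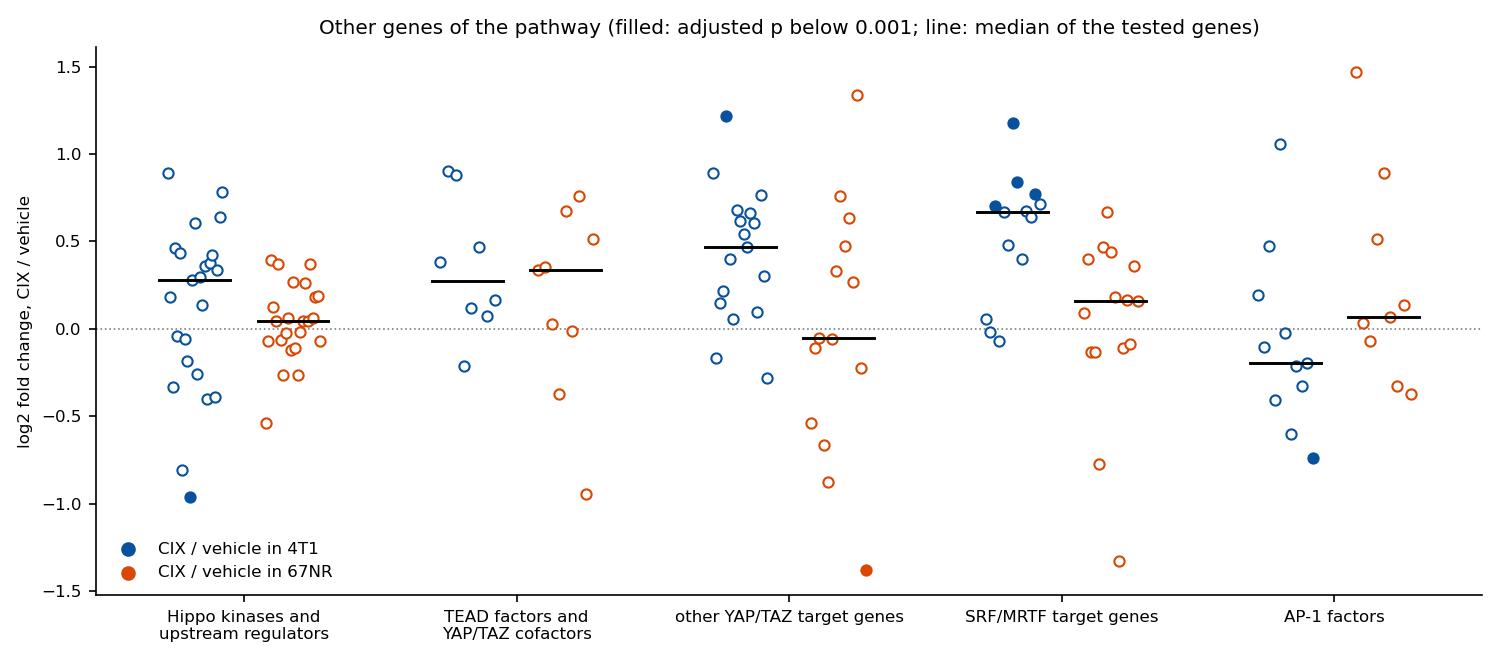
Log2 fold changes of CIX against vehicle for the genes of 5 lists, in 4T1 cells (blue) and 67NR cells (orange), with the median of the tested genes as a line; filled points passed the test. The SRF/MRTF target genes hold 4 filled points in 4T1 cells, all above 0, and the single filled point of 67NR cells is Thbs1 at -1.38.

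Targets of SRF and its actin-regulated cofactors MRTF, which share many cytoskeletal genes with YAP/TAZ, were counted in the same way. Of 13 tested in 4T1 cells 10 had an adjusted p below 0.05, against 42.7% of all genes. Among these 13 genes 4 were called, all higher, against 9.28% of all genes. They were Mical2, an actin-oxidising enzyme (1.18, adjusted p = 0.000412), Myh9, the heavy chain of non-muscle myosin (0.84, adjusted p = 0.000753), Vcl, the adhesion protein vinculin (0.77, adjusted p = 0.000236), and Cnn2, an actin-binding calponin (0.70, adjusted p = 0.00033). With 1 sample left out in turn, the calls of Mical2 and Vcl held in 4 of 8 fits each, that of Cnn2 in 3 and that of Myh9 in 1, without CIX sample 4 (adjusted p up to 0.00356). In 67NR cells, where 0.389% of all genes were called, none of 15 was called by limma-voom, and 6 had an adjusted p below 0.05, against 17.8% of all genes. There the log2 fold changes of these 4 genes were 0.67, 0.44, 0.36 and -0.13. The difference of the responses passed for 1 of 15 genes, Cnn2 (0.83, adjusted p = 9.82e-05), against 7.86% of all genes. The list's median was 0.671 in 4T1 and 0.157 in 67NR cells. Actb and Actg1 of this list share 23.5% and 40.2% of their 31-base words with other genes, so that their counts are uncertain.

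AP-1 factors bind next to TEAD factors at many enhancers. Of 11 tested in 4T1 cells 4 had an adjusted p below 0.05, against 42.7% of all genes. Among these 11 genes 1 was called, about the 9.28% found over all genes. It was Mafk, a small Maf protein, which fell by 0.74 on the log2 scale (SE 0.0974, adjusted p = 0.000453) and kept its call in 2 of the 8 fits without 1 sample, those without CIX sample 4 or 12 (adjusted p up to 0.00242). Of 9 tested in 67NR cells none was called by limma-voom, where 0.389% of all genes were. Of these 9 genes, 5 had an adjusted p below 0.05, against 17.8% of all genes. In the test of the difference none of 11 was called by limma-voom, against 7.86% of all genes, and 3 had an adjusted p below 0.05, about the 29.3% of all genes. The list's median was -0.195 in 4T1 and 0.069 in 67NR cells.

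Between the vehicle treated lines the share of called genes was larger in each list, as it was among all genes, of which 40% were called. Of 23 Hippo regulators 6 were higher and 5 lower in 4T1 cells, of 8 TEAD factors and cofactors 4 were higher, and of 14 other target genes 4 were higher and 3 lower. Of 15 SRF/MRTF targets 5 were lower and none higher, and of 8 AP-1 factors 3 were higher and 2 lower.

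Among 12629 tested genes, those outside the group whose level followed that of Ccn2 most closely over the 16 samples included Pole, the catalytic subunit of DNA polymerase epsilon, Chtf18, a clamp loader subunit, Traip, a ubiquitin ligase, and Fancb of the Fanconi anemia complex. For these 4 genes, Pearson correlations of log2 CPM lay between 0.911 and 0.926. The 16 samples fall into 4 groups, so that these values mostly describe the order of the groups. Pole had group means of 91.9 and 95.2 CPM in 4T1 cells with vehicle and CIX, and of 78.4 and 47.9 CPM in 67NR cells. On the scale log2(TPM + 1), Chtf18 remained among the 5 closest genes, with 0.898, and Pole, Traip and Fancb gave way to Incenp, Tacc3 and Exosc7. Within the group, the genes closest to Ccn2 were Ankrd1 and Amotl2, at 0.82 and 0.79.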

How the data were processed

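RNA of 4T1 and 67NR cells was sequenced in 16 samples. The authors quantified reads with salmon (version 0.12 in the submitters' processing notes), aggregated transcripts to genes by tximport, and the deposited values are estimated counts that were not normalized; whether tximport scaled them by length is not given in the sources used here. The study's methods name Ensembl GRCm38, whereas the processing notes list GRCh38; the identifiers are those of mouse genes, and 32832 of 33072 were matched to GENCODE vM21 on GRCm38. The labels give 84 sequencing cycles of single-end reads from a stranded kit.

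Estimated counts were rounded. TPM was approximated from mean transcript length, and a gene was removed where over 3 samples of a comparison were under 1 TPM, in the interaction only if this held in both lines. CPM were scaled by TMM over all samples. The main test was limma-voom (limma 3.58.1, edgeR 4.0.16, R 4.3.3) in the 8 samples of a comparison, and in all 16 for the difference of the responses, with Benjamini-Hochberg adjustment over all tested genes and a threshold of 0.001. A group was called separated from another where their samples did not overlap in CPM. Alternatives were edgeR's quasi-likelihood test, DESeq2 1.42.0, its size factors, library size only, no filter, a threshold of 0.05, a common fit, limma on log2(TPM + 1), and fits without each sample, which for the listed genes were added after the results were seen. The scripts were tested on simulated data. Replicates differed by a chi-square of at least 12.6 per gene, so that none was counted as a repeat. Detection limits cover counting error only, since reads carried no molecular identifiers.

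The 10 genes and all lists were chosen with earlier results of these data known. All 10 were named; of each list, up to 4 genes called in 4T1 or 67NR cells with the largest fold changes; and the 5 genes most correlated with Ccn2, of which 1 is not reported here. Crim1 was named after its values were seen, as were Incenp, Tacc3 and Exosc7. Motifs were searched in RefSeq promoters of GRCm38.p6.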

Additional observations from a re-analysis of the deposited data

Results flagged for a closer look

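In 4 of the 40 groups of 4 samples (10 genes in 4 groups) 1 sample lay far from the others by Dixon's test, of which chance gives about 1 in 20. Ccn2 was 13.7 CPM in CIX treated 4T1 sample 12 and 8.72 to 9.47 CPM in the other 3. Axl was 2110 CPM in CIX treated 67NR sample 14 and 2340 to 2370 CPM in the others. F3 was 24.4 CPM in CIX treated 4T1 sample 4 and 34.3 to 34.4 CPM in the others. Yap1 was 377 CPM in vehicle treated 4T1 sample 11 and 171 to 193 CPM in the others.

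The response to CIX differed between the lines, by the interaction term, for Ccn2 (4.45 on the log2 scale), Ankrd1 (1.85) and Axl (1.03). The cause of these differences was not tested.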

How the results depend on the processing

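The 3 genes called for the difference of the responses (Ccn2, Ankrd1, Axl) were 3 in every alternative run, and 4 at a threshold of 0.05; leaving out 1 sample gave 3 as well. For the other counts the cause of the changes was not tested. In 4T1 cells, where 1 of the 10 genes was called, edgeR, library size only and log2(TPM + 1) gave 0. In these fits 7, 7 and 6 of the 10 had an unadjusted p below 0.05, against 5951, 6036 and 5978 of all 11676 genes. A common fit gave 3, DESeq2 4, the threshold of 0.05 gave 6, and leaving out 1 sample 0 to 1. In 67NR cells, with 1 called, DESeq2 gave 4, 0.05 gave 5 and leaving out 1 sample 0 to 1. Between vehicle treated lines, with 2 called, DESeq2 gave 6, a common fit 5, 0.05 gave 8 and leaving out 1 sample 1 to 3. Over all genes, the 1084 called in 4T1 cells were 3096 with DESeq2, 2688 in a common fit, 4984 at 0.05 and 269 to 972 with 1 sample left out. The 45 in 67NR cells were 1042 with DESeq2, 151 in a common fit, 27 on log2(TPM + 1), 2056 at 0.05 and 0 to 75 with 1 sample left out; limma-voom gave 0 genes without vehicle sample 5 or 9 or CIX sample 6, 10 or 14, where edgeR also gave 0 and 3237 to 3395 genes had an unadjusted p below 0.05. The 993 differences of response were 1981 with DESeq2, 3701 at 0.05 and 654 to 1048 with 1 sample left out, and the 4422 differences between vehicle treated lines were 7456 at 0.05.

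Directions turned only for log2 fold changes near 0 or for Lats2. Lats2 in 4T1 cells was 0.115 with edgeR, 0.105 with DESeq2 and -0.877 to 0.322 with 1 sample left out, and between vehicle treated lines -0.409, -0.383 and -0.303 to 0.971. Ccn1 was -0.0286 to 0.197 in 4T1 and -0.0248 to 0.202 in 67NR cells with 1 sample left out, and its difference of responses was -0.0114 with edgeR, -0.0108 with DESeq2, -0.0259 with library size only, -0.066 on log2(TPM + 1) and -0.117 to 0.127 with 1 sample left out. Ccn2 between vehicle treated lines was 0.0312 on log2(TPM + 1) and -0.257 to 0.262 with 1 sample left out. No paired analysis was possible because the labels give no number, batch or day that samples of different groups share.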
